A study of Mus musculus with 12 samples.

Results

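The apolipoprotein transcripts Apoa1, Apoa2, Apoa4, Apoa5, Apob, Apoc1, Apoc2, Apoc3, Apoe and Apoh were followed across 12 RNA-seq libraries. These 10 genes were taken by name from the 21878 genes of the count table, with earlier results of these data known. All 10 passed the filter on low counts that left 14330 genes for testing.

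The libraries come from Hepa1-6, a mouse hepatoma line, with the tissue given as liver, and fall into 4 groups of 3. One group was untreated, one received mIFNalpha (murine interferon alpha), one received an anti-PD-1 antibody, which blocks an inhibitory receptor of T cells, and the last received both agents. The labels give no dose, time, host or site of growth, and do not say whether the 3 libraries of a group came from separate animals or cultures, so p-values measure the spread between these libraries only.

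Apolipoproteins are the protein parts of lipoprotein particles and are secreted mainly by hepatocytes and enterocytes. Apob is the scaffold of very-low-density lipoprotein, whereas Apoa1 and Apoa2 are the main proteins of high-density lipoprotein (HDL). The smaller exchangeable proteins set how particles are used: Apoc2 is the cofactor that activates lipoprotein lipase, Apoc3 opposes clearance, Apoa5 promotes it, and Apoe is a ligand of hepatic lipoprotein receptors that macrophages make as well.

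Of the 10 genes, 4 lie in 1 cluster on mouse chromosome 9 (mm10, GENCODE annotation): Apoa1 at chr9:46228580-46230466, Apoc3 at chr9:46232933-46235636, Apoa4 at chr9:46240696-46243459 and Apoa5 at chr9:46268633-46271919, of which Apoc3 is on the minus strand. A second cluster on chromosome 7, all on the minus strand, holds Apoc2 at chr7:19671579-19677941, Apoc1 at chr7:19689481-19692660 and Apoe at chr7:19696109-19699188, with Apoc4 between Apoc2 and Apoc1. Apoa2 (chr1:171225054-171226379), Apoh (chr11:108343354-108414396) and Apob (chr12:7977648-8016835) stand apart. All but the last 5 bases of Apoc2 lie within Gm44805, an annotated gene on the same strand that reaches into Apoc4 and has no row in the count table, so its count is uncertain. Apoh shares 575 bases with Prkca on the opposite strand, and the sources used here do not say whether counting used strand.

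Apoa2 and Apoc2 were the members called in the comparisons below, in opposite directions, so the stretch before each gene's start is shown. Sequences are from RefSeq (GRCm38.p6), run 5′ to 3′ along the gene's own strand and end at the base before its start. Capitals mark TATAAA in Apoa2 and, in Apoc2, AGGTCA, the half-site bound by many nuclear receptors.
Apoa2 (chr1:171224804-171225053, plus strand): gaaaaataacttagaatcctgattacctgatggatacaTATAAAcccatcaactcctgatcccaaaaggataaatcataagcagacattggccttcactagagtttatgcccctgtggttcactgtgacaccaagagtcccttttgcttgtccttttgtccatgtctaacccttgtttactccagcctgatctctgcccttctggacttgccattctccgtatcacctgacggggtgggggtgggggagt
Apoc2 (chr7:19677942-19678082, minus strand): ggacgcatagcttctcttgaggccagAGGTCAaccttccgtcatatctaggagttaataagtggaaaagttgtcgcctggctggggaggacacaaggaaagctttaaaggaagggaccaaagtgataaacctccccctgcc
The Apoc2 stretch is 141 bases because Apoc4 ends there, and that of Apoa2 is 250. On both strands, 6 motifs were searched: the TATA box as TATAAA, the nuclear receptor half-site as AGGTCA, a site of hepatocyte nuclear factor 4 as CAAAGTCCA, a site of C/EBP factors as TTGCNNAA, the core of interferon response elements as AAANNGAAA and a gamma-activated site as TTCNNNGAA. Neither stretch holds the last 3 motifs or the site of hepatocyte nuclear factor 4. Of 32536 mouse promoter windows of 250 bases, 12.3% hold TATAAA and 14.0% AGGTCA. The TATAAA of Apoa2 lies 212 to 207 bases before the start, and the AGGTCA of Apoc2 lies 115 to 110 bases before it. These are matches of letters in a window and are given as a description.

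Library totals ran from 31317989 to 38536732 counts. The first principal component held 53.7% of the variance, and anti-PD-1 replicate 3 stood farthest out on it. Of 7 hepatoma markers in the count table, all but Dlk1 were detected in every library. Afp (alpha-fetoprotein), the most abundant, was at 5700 to 11200 CPM (counts scaled to library size, scaled by TMM, the trimmed mean of M-values). Dlk1 was at 0 in mIFNalpha replicate 1 and at most 0.357 CPM elsewhere. Of 16 macrophage and monocyte markers, 14 rose over 6 libraries with the antibody against 6 without, where 15.9% of all genes did. So did 9 of 10 T cell markers and 5 of 10 fibroblast markers. All 10 endothelial markers were higher, but none was called, and of 6 enterocyte markers none rose and 2 fell. Summed over the 16 macrophage and monocyte genes, CPM was 699 to 1090 in the 6 libraries without the antibody and 1910 to 6120 in the 6 with it. It was highest in anti-PD-1 replicate 3, and none of these 16 genes was at 0 in any library. The 4 Y-linked genes summed to 9.95 to 27.3 CPM without the antibody and 26.2 to 94.4 with it. In bulk RNA, fewer cells of a type and less RNA per cell cannot be told apart.

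Apoe was the most abundant member in every library. It took 0.351% to 0.802% of all counts and ranked between the fourth and the ninth gene of the whole table. Per length, mean FPKM over the 12 libraries was 2060 for Apoe, 423 for Apoa1, 360 for Apoc1, 146 for Apoa2, 59.9 for Apoh, 58 for Apoc3, 53.3 for Apob, 17.8 for Apoa5, 5.12 for Apoa4 and 2.56 for Apoc2. Neighbours in this order were Apoa1 above Apoc1 in 7 of 12 libraries, Apoh above Apoc3 in 8, Apoc3 above Apob in 5 and Apoa4 above Apoc2 in 9, so these pairs did not keep 1 order. The other 5 neighbouring pairs kept their order in all 12. Apoa4, which the intestine makes in quantity, was near the bottom here, and of the intestinal markers only Cdh17 and Vil1 were abundant, at 539 to 1630 and 155 to 351 CPM, while Lct was at 0.13 to 0.827 CPM.

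Apoe, Apob and Apoc1 spanned the narrowest ranges across the libraries. Apoe was 5430, 5050 and 3980 CPM in untreated replicates 1 to 3, 4140, 4380 and 4950 with mIFNalpha, 3740, 4120 and 8570 with the antibody, and 4840, 3730 and 3300 with both agents. The groups overlap throughout, and only anti-PD-1 replicate 3 leaves the common range. Apob, whose level spanned 675 to 1700 CPM, and Apoc1, at 186 to 600 CPM, were alike in this: their highest value was also in anti-PD-1 replicate 3. Apoa1, the main protein of HDL, was 549, 371 and 327 CPM untreated, 604, 302 and 360 with mIFNalpha, 506, 209 and 1120 with the antibody, and 1090, 218 and 356 with both agents. Its groups overlap, with 1 library of each antibody group above all others. Apoa4 had the widest range, with 10.3, 3.15 and 8.49 CPM untreated, 31.4, 4.86 and 5.53 with mIFNalpha, 36.1, 2.49 and 36.2 with the antibody, and 15.8, 2.09 and 5.32 with both agents. Replicate 2 was the lowest in each of the 4 groups, and the ranges of all groups overlap.

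High members were high together in single libraries. On CPM, anti-PD-1 replicate 3 was the highest of all 12 libraries for 9 of the 10 members, Apoc2 being the exception. For Apoa4 it was nearly level with anti-PD-1 replicate 1 (36.2 against 36.1). On FPKM, Apoa1 was highest in combination replicate 1 (941 against 921) and Apoa4 in anti-PD-1 replicate 1 (14.1 against 13.4). The share of all genes highest in that library was not computed. Within their groups, mIFNalpha replicate 1 was the highest for 8 members and combination replicate 1 for 9, whereas combination replicate 2 was the lowest of its group for 9. Centred log2 CPM was closest between Apoc1 and Apoe and between Apoa5 and Apoh, with a mean absolute difference of 0.22 over the 12 libraries in both pairs. Apoa5 and Apoc3, both of the chromosome 9 cluster, differed by 0.26. Apoc1 and Apoe share the chromosome 7 cluster. Sik3, Zpr1 and Bud13, which flank the chromosome 9 cluster, were not called in any comparison.

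**Figure D1:**
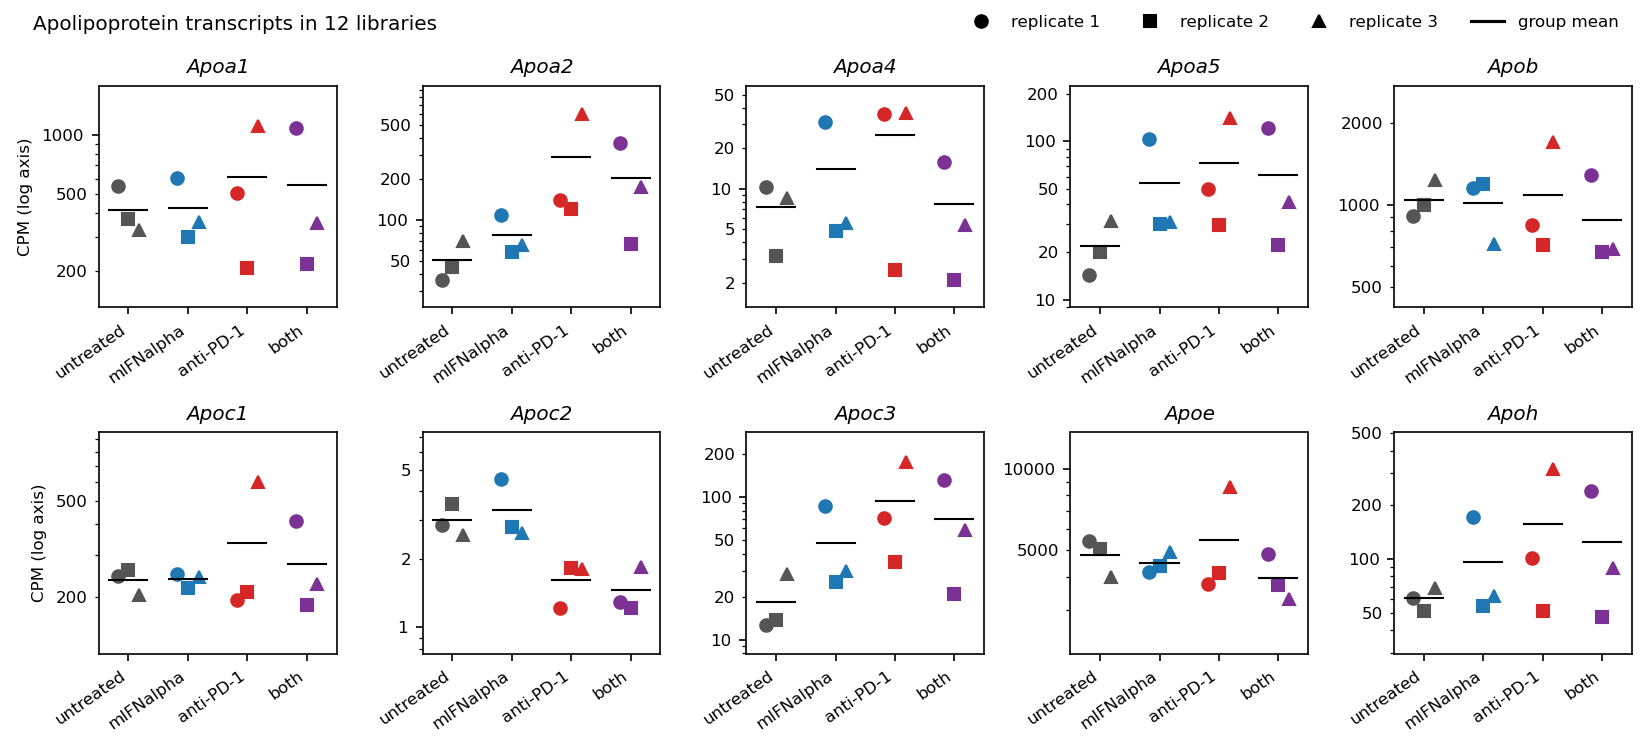
CPM of each apolipoprotein transcript on log axes, with 1 point per library, shaped by replicate and coloured by group, and a bar at each group's mean. Anti-PD-1 replicate 3 is the top point for 9 of 10 genes, and for Apoc2 all 6 libraries with the antibody (1.22 to 1.85) lie below all 6 without it (2.57 to 4.56).

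Interferon alpha alone left no member past the test. Apoc3, an inhibitor of triglyceride clearance, was 12.7, 13.8 and 28.6 CPM untreated and 86.7, 25.3 and 30.4 with mIFNalpha. Apoa5 was 14.3, 20.1 and 31.5 CPM untreated and 103, 29.9 and 31.1 with mIFNalpha. For both, replicate 1 of the treated group was high and the other replicates lay inside the untreated range or within 2 CPM of its top. The log2 fold changes were 1.37 ± 0.76 (SE, n = 3 against 3) for Apoc3 and 1.31 ± 0.75 for Apoa5, both with an adjusted p of 0.885 (edgeR quasi-likelihood, Benjamini-Hochberg over 14330 genes), the smallest among the members. Over the 10 members 8 values were above 0 and the median was 0.39, against 0.01 for all tested genes. The background was also empty: 0% of all genes rose and 0% fell at an adjusted p below 0.05. At an unadjusted p below 0.05 there were 801 genes, none of them a member, and DESeq2 called 30 genes, none a member. Without mIFNalpha replicate 1, the median of the members was -0.05 and 7 of 10 values were below 0.

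The antibody alone raised Apoa2, the second protein of HDL. Apoa2 was 36.3, 45.1 and 70.1 CPM in the untreated libraries and 140, 120 and 600 CPM with the antibody. The groups do not overlap, and anti-PD-1 replicate 3 was over 4 times as high as the other replicates of its group. The log2 fold change was 2.50 ± 0.72 (SE, n = 3 against 3), with an adjusted p of 0.0411 in the edgeR fit. Without anti-PD-1 replicate 3 it was 1.37 ± 0.56 with an adjusted p of 0.185, so the call rested on that library. It was also lost without untreated replicate 1 (2.31, adjusted p = 0.154), untreated replicate 2 (2.42, 0.14), untreated replicate 3 (2.81, 0.0505), mIFNalpha replicate 2 (2.50, 0.0564), mIFNalpha replicate 3 (2.50, 0.0563) or combination replicate 3 (2.50, 0.0613). Without untreated replicate 1 only 2 of all genes rose and 3 fell, and without untreated replicate 2 only 2 and 4. With all 12 libraries 1398 rose and 728 fell. Fitted on the 6 untreated and anti-PD-1 libraries alone, the Apoa2 value was 2.54 with an adjusted p of 0.108, and no gene of the whole table was called.

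Apart from Apoa2, no member passed the test in that comparison. Apoc3 was 70.8, 34.7 and 176 CPM with the antibody, above every untreated library, with a log2 fold change of 2.35 ± 0.78 and an adjusted p of 0.0652. It was called without anti-PD-1 replicate 2 (2.74, adjusted p = 0.0379), where 1871 of all genes rose and 720 fell. Apoc2, the lipase cofactor, went the other way: 2.85, 3.52 and 2.57 CPM untreated and 1.22, 1.83 and 1.82 with the antibody. Its groups do not overlap either, and the log2 fold change was -0.88 ± 0.31 with an adjusted p of 0.0811. It was called without mIFNalpha replicate 1 (-0.88, adjusted p = 0.049), where 1765 of all genes rose and 1262 fell. Apoa5, at 49.9, 29.7 and 140 CPM with the antibody, had a log2 fold change of 1.74 ± 0.76 (adjusted p = 0.135), and Apoh, at 101, 51 and 315 CPM against 60.8, 51.6 and 68.5 untreated, of 1.37 ± 0.73 (adjusted p = 0.208). The major proteins moved less: Apoa1 0.56 ± 0.64, Apoc1 0.51 ± 0.41, Apoe 0.18 ± 0.28 and Apob 0.05 ± 0.35 on the log2 scale, none called.

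In all, 1 of 10 members rose and none fell, against 9.76% of all tested genes that rose and 5.08% that fell. Of the 10 values, 9 were above 0, with a median of 0.96 against -0.01 for all genes. Groups did not overlap for 3 members, 2 higher and 1 lower, while 17.5% of all genes were higher without overlap and 18.5% lower. Without anti-PD-1 replicate 3 the members divided into 5 above and 5 below 0 with a median of 0.07, and Apoa1, Apob, Apoc1 and Apoe turned to -0.20, -0.42, -0.21 and -0.28. Summed adult hepatocyte markers were also highest in that library, at 34900 CPM against 12200 to 22000 in the other 11, and their part in the result was not tested.

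With both agents, Apoa2 was 369, 66 and 174 CPM, high in replicate 1 and inside the untreated range in replicate 2. Against untreated, the log2 fold change was 2.01 ± 0.71 with an adjusted p of 0.0824. Apoc2 was 1.30, 1.22 and 1.85 CPM, below every untreated library, with a value of -1.03 ± 0.32 and an adjusted p of 0.0547. Neither was called with all 12 libraries in the fit. With anti-PD-1 replicate 3 left out, a library outside this comparison that adds to the estimate of spread, Apoa2 was called at 2.0 ± 0.53 (adjusted p = 0.0267) and Apoc2 at -1.02 ± 0.32 (adjusted p = 0.0457). In that fit 1731 of all genes rose and 1186 fell, against 1086 and 717 with all 12 libraries. Apoc2 was also called without untreated replicate 3 (-1.13, adjusted p = 0.0497) or mIFNalpha replicate 1 (-1.03, adjusted p = 0.0333). Of all genes, 1567 rose and 1027 fell in the first of these fits, and 1426 and 1155 in the second. With all 12 libraries, 0 of 10 members were called, against 7.58% of all genes that rose and 5% that fell. At an unadjusted p below 0.05 there were 3 members and 4558 of all tested genes. DESeq2 called 2 members, Apoa2 and Apoc2, where 1784 of all genes rose and 1260 fell. Only Apoc2 had groups without overlap, where 24.7% of all genes were higher without overlap and 24.8% lower. Apoc3 was 132, 21 and 58.2 CPM, Apoa5 121, 22.2 and 41.7 and Apoh 238, 47.4 and 88.9, each highest in replicate 1 and lowest in replicate 2. Their log2 values of 1.93 ± 0.77, 1.49 ± 0.75 and 1.05 ± 0.72 did not pass, nor did that of Apoe (-0.29 ± 0.28), and the median of the 10 was 0.32 against -0.01. With 1 library left out the median ran from -0.32 (without combination replicate 1, 4 values above 0 and 6 below) to 0.66 (without combination replicate 2).

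Against mIFNalpha alone, the combination isolates the antibody in the presence of interferon and shares no library with the comparison of the antibody with untreated. Apoc2 was 4.56, 2.77 and 2.62 CPM with mIFNalpha, above every combination library, and the log2 fold change was -1.19 ± 0.32 with an adjusted p of 0.0811. It was called without anti-PD-1 replicate 3 (-1.21 ± 0.32, adjusted p = 0.0405), where 740 of all genes rose and 712 fell. The unadjusted p of Apoc2 (edgeR) was 0.0032 with that library and 0.00323 without it, so its own p did not fall. Apoa2 was 108, 58.3 and 65.3 CPM with mIFNalpha, which overlaps the combination, and its value was 1.39 ± 0.69 (adjusted p = 0.256). With every library in the fit, none of the 10 members was called, where 0.342% of all genes rose and 0.614% fell. An unadjusted p below 0.05 was found for 1 member and for 3307 of all tested genes. DESeq2 called 1 member, Apoc2, where 834 of all genes rose and 823 fell. For groups without overlap the background was 20.3% higher and 16.4% lower. The members' median was 0.20 and ran from -0.52 (without combination replicate 1) to 0.65 (without mIFNalpha replicate 1) with 1 library left out.

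The combination and the antibody alone were not separated for any member. All 10 values were below 0, from -1.69 (Apoa4) to -0.15, with a median of -0.31, yet every group overlapped and the smallest adjusted p was 0.997. Without anti-PD-1 replicate 3, 8 of 10 values were above 0 and the median was 0.42, and without combination replicate 1 it was -1.14. No gene of the table rose (0%) or fell (0%) in that comparison, 682 had an unadjusted p below 0.05, and DESeq2 called 22. The interaction of the 2 agents likewise called no member and no gene (0% in either direction), with 868 genes at an unadjusted p below 0.05, none of them a member, and 61 called by DESeq2. Its values were all below 0, such as -2.62 ± 1.47 for Apoa4 and -1.11 ± 0.96 for Apoa2, and without anti-PD-1 replicate 3 they divided into 5 above and 5 below 0.

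Since the antibody was given to 6 libraries and withheld from 6, its mean effect over both backgrounds was estimated in the same fit. This comparison was added after the values were seen. It called 2 members. Apoa2 rose by 1.95 ± 0.50 on the log2 scale (n = 6 against 6, adjusted p = 0.0168): it was 36.3 to 108 CPM with a median of 61.8 without the antibody, and 66 to 600 with a median of 157 with it. The ranges overlap, since combination replicate 2 lies inside the range without the antibody. Apoc2 fell by 1.03 ± 0.22 (adjusted p = 0.00852), with all 6 libraries with the antibody, at 1.22 to 1.85 CPM, below all 6 without it, at 2.57 to 4.56. Background shares were 15.9% of genes that rose and 10.9% that fell, and 8.03% higher and 5.18% lower without overlap, so 1 of 10 in each direction is near the background.

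Both calls held without anti-PD-1 replicate 3, Apoa2 at 1.36 ± 0.38 (adjusted p = 0.0305) and Apoc2 at -1.08 ± 0.24 (adjusted p = 0.0122). In that fit 1781 of all genes rose and 1426 fell. Over 20 alternatives Apoa2 was called in all 20, between 1.36 and 2.16, and Apoc2 in 17. The 3 that did not call Apoc2 used the deposited FPKM values (-0.53, -0.75 and -0.53). Those are not in proportion to its counts: 1000 counts of Apoc2 corresponded to between 13.1 and 52.3 FPKM by library, whereas for Apoa2 they corresponded to 25.7 to 30.2. Apoc2 is also the least abundant member, with 42 to 152 counts in a library. Apoc3 (1.46 ± 0.53, adjusted p = 0.0648) was called without mIFNalpha replicate 1 (1.84, 0.0367), anti-PD-1 replicate 2 (1.66, 0.0372) or combination replicate 2 (1.67, 0.0387). In these fits 2455, 2637 and 1976 of all genes rose and 1860, 1585 and 1068 fell. With all 12 libraries Apoe, at 0.00 ± 0.20, was not called.

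**Figure D2:**
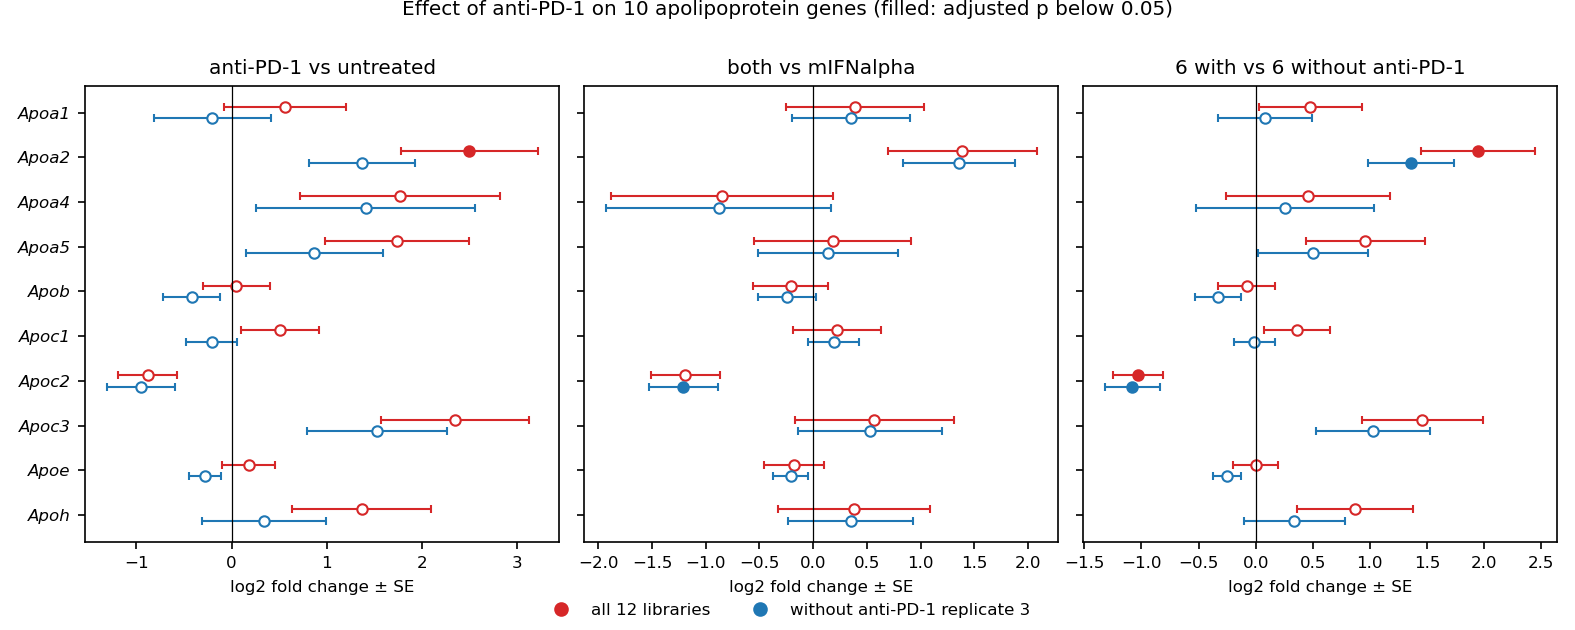
Log2 fold change ± SE of each apolipoprotein gene in 3 comparisons, with all 12 libraries (red) and without anti-PD-1 replicate 3 (blue), where filled points have an adjusted p below 0.05. In the right panel the points of Apoa2 (1.95 and 1.36) and Apoc2 (-1.03 and -1.08) are filled in both colours, while in the left panel that of Apoa2 is filled only with all 12 libraries.

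Ratios between members within a library do not depend on how libraries are scaled. Apoa2 per count of Apoa1 was 0.066, 0.121 and 0.214 untreated, 0.179, 0.193 and 0.181 with mIFNalpha, 0.276, 0.572 and 0.534 with the antibody, and 0.34, 0.303 and 0.488 with both. All 6 libraries with the antibody lie above all 6 without it, including combination replicate 2, where Apoa2 itself was low. Apoa2 per count of Apoh was 0.597 to 1.07 without the antibody and 1.39 to 2.35 with it, again without overlap. Of the 45 pairs of members, 6 separated the libraries in this way: Apoa2 against Apoa1, Apoa5, Apob, Apoc2 and Apoh, and Apoc1 against Apoc2. Apoa2 per count of Apoc3 overlapped (1.97 to 3.45 with the antibody, 1.25 to 3.26 without). Among all other tested genes, 1.07% were separated upward when divided by Apoa1 and 0.628% when divided by Apoh. No such share was computed for other divisors or for pairs in either direction, so 6 of 45 has no background. Apoc2, in 2 of the 6 pairs, separates the libraries on its own CPM. These pairs were picked out after the values were seen and carry no test.

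**Figure D3:**
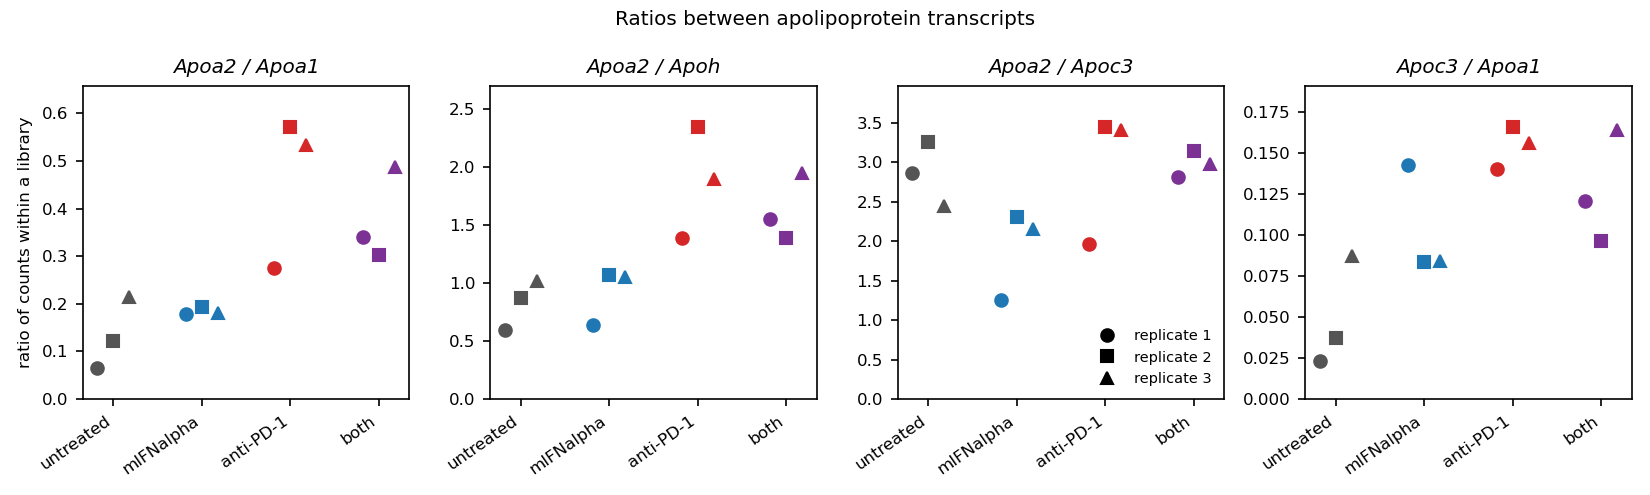
Ratios of counts between pairs of apolipoprotein transcripts, 1 point per library, on axes that start at 0. For Apoa2 over Apoa1 every library with the antibody is at 0.276 or above and every library without it at 0.214 or below, whereas Apoa2 over Apoc3 overlaps.

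The genes whose centred log2 CPM followed Apoa2 most closely, out of 10924 candidates over 12 libraries, were Haao (mean absolute difference 0.21), Serpina1c (0.22) and 1300017J02Rik (0.22), against 0.94 for the mean absolute deviation of Apoa2 itself. Serpina1c belongs to a family of near-identical copies, so its count is uncertain. For Apoe they were Mlxipl (0.10), Akr7a5 (0.11) and Cyp4v3 (0.11). For Apob they were Ugt1a6b (0.16), Echdc3 (0.17) and Fpgs (0.18).

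Of 21 adult hepatocyte markers tested, 17 were higher with the antibody in the comparison of 6 with 6, and the median was 1.0 against -0.01 for all genes. Only 2 rose and 1 fell, against 15.9% and 10.9% of all genes. Cyp2e1, a cytochrome of mature hepatocytes, rose by 1.89 ± 0.62 (adjusted p = 0.046) and Otc, a urea cycle enzyme, by 1.90 ± 0.58 (adjusted p = 0.0335), while Fgb, a fibrinogen chain, fell by 0.61 ± 0.17 (adjusted p = 0.0238). Cyp2e1 was 16.2, 44.2 and 94.4 CPM untreated, 212, 64.8 and 62.5 with mIFNalpha, 152, 88.4 and 615 with the antibody, and 533, 142 and 170 with both, so the highest replicate of each group was the same as for Apoa2. The sum over the 21 markers differed in the untreated group. It was highest in replicate 1 (20900 CPM, against 18700 in replicate 3), where Apoa2 was lowest. In the other groups its highest replicate was that of Apoa2. Alb, albumin, was 6870 to 16000 CPM and was not called (-0.06, adjusted p = 0.812). Without anti-PD-1 replicate 3, 13 of the 21 markers were higher, the median was 0.37, none rose and 3 fell. Over all genes, 1781 rose and 1426 fell in that fit. Of 6 hepatoma markers tested, 4 fell (background 10.9%), led by Afp (-0.62 ± 0.10, adjusted p = 0.00383). The part of these marker changes, and of the macrophage, T cell, fibroblast and Y-linked genes above, in the rise of Apoa2 was not tested.

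**Figure D4:**
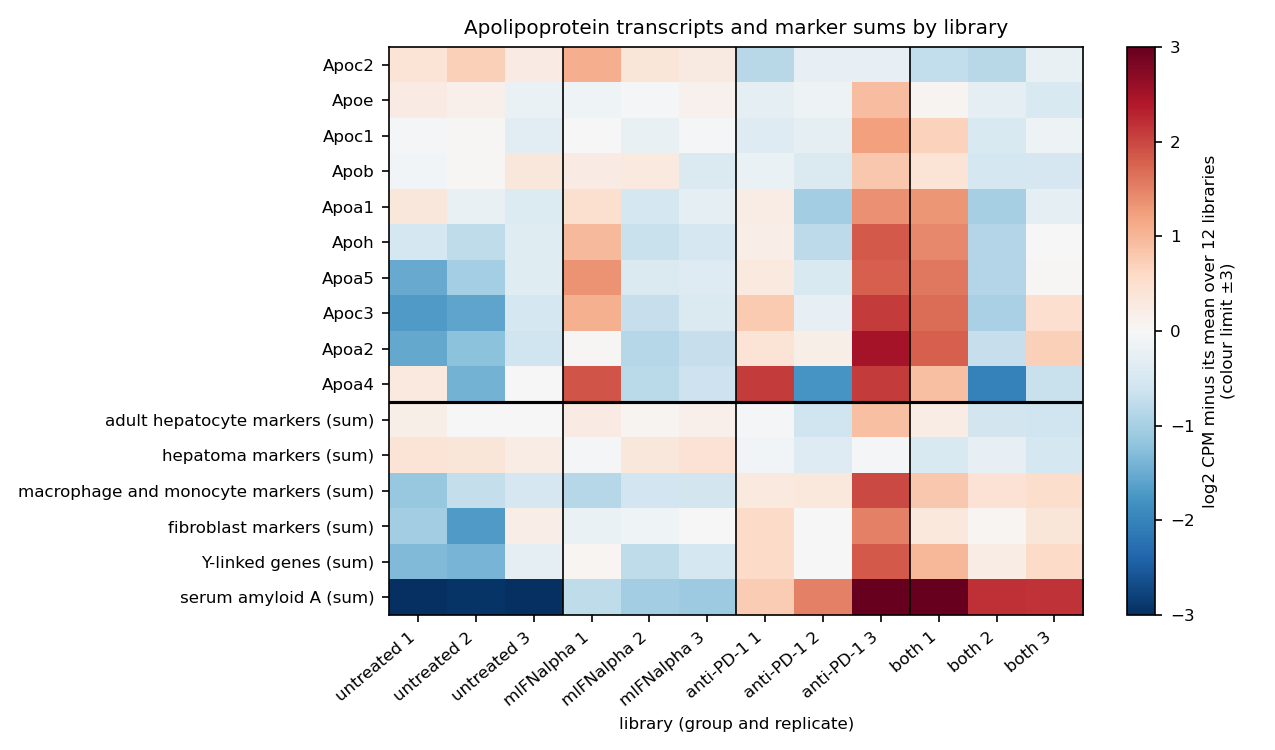
Log2 CPM minus its mean over the 12 libraries for each apolipoprotein transcript (above the line) and for summed marker lists (below it), with libraries in columns and colours limited to ±3. Anti-PD-1 replicate 3 is red for 9 of the 10 transcripts and for the macrophage sum (6120 CPM), and Apoc2 is blue in all 6 libraries with the antibody. The sums of adult hepatocyte, fibroblast, Y-linked and serum amyloid A genes were also highest in anti-PD-1 replicate 3.

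Genes that load and secrete the particles were examined next, by lists chosen with earlier results of these data known. All counts here are for the comparison of 6 with 6, in which 15.9% of all genes rose and 10.9% fell. Of 12 genes of lipoprotein assembly, 1 rose and 2 fell, near that background. Mttp, which loads lipid onto Apob, was 192 to 267 CPM untreated, 110 to 228 with mIFNalpha, 101 to 125 with the antibody and 86.1 to 116 with both. It fell by 0.93 ± 0.17 (adjusted p = 0.00516) and was also called for the antibody against untreated (-1.03 ± 0.25, adjusted p = 0.026). The library that was low without the antibody was mIFNalpha replicate 1. Mia3, part of the export machinery for large cargo, fell by 0.30 ± 0.07 and Apobec1, which edits Apob messenger RNA, rose by 0.80 ± 0.25, the last not called without anti-PD-1 replicate 3 (0.53, adjusted p = 0.0602). Apob itself, the cargo of Mttp, had a value of -0.08 ± 0.25 in that comparison and was not called. Without anti-PD-1 replicate 3, none of the 12 rose and 4 fell. In that fit 1781 of all genes rose and 1426 fell, the background for the counts below that leave out this library.

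Of 25 regulators of apolipoprotein genes, 1 rose and 5 fell in the comparison of 6 with 6, against 15.9% and 10.9% of all genes, or 0 and 6 without anti-PD-1 replicate 3. Hnf4a, the nuclear receptor that drives many hepatocyte genes including apolipoproteins, was 325 to 416 CPM untreated, 235 to 418 with mIFNalpha, 221 to 260 with the antibody and 176 to 213 with both. It fell by 0.69 ± 0.13 (adjusted p = 0.00517), and by 0.70 ± 0.14 without anti-PD-1 replicate 3 (adjusted p = 0.00808). Nr2f2 fell by 0.53 ± 0.12 and Srebf1, a regulator of lipid synthesis, by 0.36 ± 0.11.

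Serum amyloid A proteins are apolipoproteins of HDL, and some, but not all, are acute-phase proteins. All 4 genes rose, where 15.9% of all genes did. Saa1 was 3.24, 11.8 and 4.22 CPM untreated, 60.4, 47.4 and 49.4 with mIFNalpha, 154, 216 and 1250 with the antibody, and 914, 455 and 414 with both. Every library with the antibody was above every one without it, and the log2 value was 4.95 ± 0.60 (adjusted p = 0.00213), or 4.17 ± 0.35 without anti-PD-1 replicate 3. Saa2 rose by 5.54 ± 0.66. Saa1 and Saa2 are near-identical copies, so the share of each is uncertain.

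A list of other apolipoprotein genes also held Apobr, which encodes a receptor. Of its 15 genes tested, 5 rose and 1, Apobr, fell, against 15.9% and 10.9% of all genes. Without anti-PD-1 replicate 3, 3 rose and 1 fell. Apol6 rose by 1.58 ± 0.30 (adjusted p = 0.00557) and Apol10b by 2.0 ± 0.40 (adjusted p = 0.00616), each without overlap, at 2.17 to 6.52 against 8.27 to 21.9 CPM for Apol6. Apol7c rose by 2.77 ± 0.66 and Apobr, a receptor for Apob-containing particles, fell by 0.37 ± 0.11. The Apol genes are close relatives of one another, so their counts are uncertain. Apoc4, the neighbour of Apoc2, was 24 to 47.1 CPM and was not called (-0.15, adjusted p = 0.55).

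Of 10 HDL remodelling genes, 4 rose and none fell, against 15.9% and 10.9% of all genes. Pltp, which transfers phospholipid between particles, was 7.18 to 12.1 CPM without the antibody and 17.9 to 104 with it. The groups do not overlap, and it rose by 2.16 ± 0.46 (adjusted p = 0.00797), or 1.54 ± 0.28 without anti-PD-1 replicate 3 (adjusted p = 0.00631). Pon1, an HDL-bound esterase, rose by 2.21 ± 0.56, Pon3 by 0.61 ± 0.18 and Abcg1, a cholesterol exporter, by 0.74 ± 0.25. Without anti-PD-1 replicate 3, 2 of the 10 rose.

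Among 10 lipases and their regulators, 2 rose and 1 fell, near the 15.9% and 10.9% of all genes, or 0 and 1 without anti-PD-1 replicate 3. Lpl, the lipase that Apoc2 activates, was 97.3 to 323 CPM and was not called (0.31 ± 0.22, adjusted p = 0.318). Lipc, hepatic lipase, rose by 1.56 ± 0.50 but was not called without anti-PD-1 replicate 3 (1.06, adjusted p = 0.104).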

How the data were processed

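Bulk RNA-seq of 12 libraries in 4 groups of 3 was analysed from the deposited table of raw counts per gene and the deposited FPKM values per library. HISAT2 2.1.0, HTSeq, Cufflinks and mm10 are named in the submitters' processing notes, which state neither the annotation nor a strand setting. The deposited counts were reduced to genes that filterByExpr keeps at a minimum count of 10. They were scaled by TMM and tested with edgeR 4.0.16 (R 4.3.3, quasi-likelihood, robust), 1 mean per group over all 12 libraries, with Benjamini-Hochberg adjustment over 14330 genes and a threshold of 0.05. The SE of a log2 fold change is its size divided by the square root of F. The authors' FPKM values were used for levels between genes and, as log2(FPKM + 1) or log2(FPKM + 0.1), in limma 3.58.1. DESeq2 1.42.0 was another alternative. All 10 members are described in every comparison, other lists by counts with at most 4 called members with the smallest p, and Hnf4a, Mttp, Lpl, Pltp, Afp, Alb, Saa1 and Saa2 always. Some listed genes are not reported here. The members and lists were chosen with earlier results of these data known. Symbols matched GENCODE M21 for 94.5% of genes. RefSeq promoter windows were found for 8 of the 10 members.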

Additional observations from a re-analysis of the deposited data

How the results depend on the processing

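For 46 results, 955 values were recomputed, and 869 counted as unchanged. For single genes this meant the same direction and side of the threshold, and for counts of members a move within 1.5 times. A median counted as unchanged if it moved by less than 0.93, whatever its sign, so medians that changed sign are among the 869. That limit is the median SD of the members' log2 CPM within groups. For single genes 18 values reversed. The rest crossed the threshold or, for counts, moved by over 1.5 times, and the cause was not tested. The count of members called for the antibody against untreated, 1, was 0 with no low-count filter, 3 with DESeq2, 0 with each of 3 limma fits on FPKM, 0 with only the groups compared, 0 without mIFNalpha replicate 1 and anti-PD-1 replicate 3 together, and 0 to 2 with 1 library left out. In that DESeq2 fit 2113 of all genes rose and 1200 fell. With 1 library left out, 2 to 1871 of all genes rose and 3 to 1262 fell. For the combination against untreated, 0 became 2 with DESeq2, 1 with limma on log2(FPKM + 1) or log2(FPKM + 0.1), 1 with only the groups compared, 2 without both libraries, and 0 to 2 with 1 library left out. Of all genes, 792 rose and 204 fell in the first of these limma fits, and 867 and 210 in the second. With only the groups compared 1977 rose and 1812 fell, and without both libraries 2253 and 1947. With 1 library left out, 21 to 1731 rose and 12 to 1186 fell. Against mIFNalpha, 0 became 1 with DESeq2 and ranged from 0 to 1 with 1 library left out. It was 1 without anti-PD-1 replicate 3, where 740 of all genes rose and 712 fell. For 6 against 6, 2 became 1 in the 3 limma fits, and that comparison and the interaction were not run with only the groups compared. In those 3 limma fits 1397, 1412 and 2171 of all genes rose and 691, 691 and 734 fell. Whether replicate numbers pair the libraries is not known, and the main fit used no pairing. Of 18 same-numbered pairs, 8 had deviations correlated above 0.1 (from -0.304 to 0.503 over the 18), which does not settle it. With the replicate block, 2 members (Apoa2 and Apoc3) were called for the antibody against untreated, in place of 1. In that fit 1550 of all genes rose and 838 fell.

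Apoc2 for mIFNalpha against untreated, 0.16, was -0.42, -0.55 and -0.42 in the limma fits, -0.11 without both libraries and -0.14 to 0.31 with 1 library left out. For the antibody against untreated, leaving out 1 library gave -0.20 to 0.97 for Apoa1, -0.42 to 0.28 for Apob, -0.21 to 0.78 for Apoc1 and -0.28 to 0.39 for Apoe, and leaving out both gave -0.20, -0.42, -0.21 and -0.28. Apoa2 for the combination against the antibody was -1.26 to 0.63 with 1 library left out and 0.63 without both. The interaction was 0.31 for Apoa2 and 0.04 for Apoc2 without both libraries. Depth limits Apoc2 most, at 42 to 152 counts in a library.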
